A study of Caenorhabditis elegans with 2 samples.

Results

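The 9 genes described here, cpg-1, cpg-2, cbd-1, egg-1, egg-2, egg-3, chs-1, perm-2 and perm-4, encode proteins that build the eggshell of Caenorhabditis elegans or act in egg activation. They were chosen by name from 19973 protein-coding genes, and all 9 were found in the Ensembl annotation of assembly WBcel235. For each gene the data are the peaks of MADF-3, a nuclear protein with a Myb-related DNA-binding domain, whose summit lay within 500 bp of the annotated 5' end. The measurements are ChIP-seq, in which DNA bound by a protein is recovered with an antibody and sequenced, on whole young adults of strain RW12241. In this strain CRISPR placed TY1, EGFP and 3xFLAG tags at the madf-3 gene itself, and the antibody recognised GFP. Worms were bleached, held as starved L1 larvae to synchronise them, and collected at 63 hours. The only group has 2 biological replicates, and no untagged or untreated group and no control library was used here. Whole worms were used, so the values join oocytes, the rest of the germ line and every somatic tissue, and the tissue a peak came from cannot be told apart. Neither replicate carries an expression measurement, so the labelled stage could not be checked against marker genes.

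The nematode eggshell is built with proteins that the oocyte has already made. An outer vitelline layer carries CBD-1, PERM-2 and PERM-4, a middle layer holds chitin made by the synthase CHS-1, and an inner layer holds the chondroitin proteoglycans CPG-1 and CPG-2, which leave the egg in cortical granules. EGG-1 and EGG-2 are membrane proteins of the oocyte surface that are needed for sperm entry, and EGG-3 is a phosphatase-like protein that links fertilisation to the cell cycle and to eggshell formation.

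The sequences under the summits of 4 of the genes are shown because 3 of them hold short words in common. Each run reaches 100 bases to either side of a summit, read 5' to 3' on the strand of the gene from the RefSeq copy of WBcel235, the assembly also called ce11. Capitals mark the words GCGGGAAA, TTTGATCT and TTTGACC on either strand. These words were picked by eye after reading the windows. The chs-1 window was searched for them as well and is not printed. The egg-1 window is chrIII:5727926-5728126 on the plus strand and the cbd-1 window chrIV:11372736-11372936 on the plus strand. The cpg-1 window, chrIII:4489017-4489217 on the plus strand, lies under a peak of replicate 2 alone. The egg-3 window, chrII:10884520-10884720 on the minus strand, lies under a peak of the conservative list and has none of the words.
egg-1: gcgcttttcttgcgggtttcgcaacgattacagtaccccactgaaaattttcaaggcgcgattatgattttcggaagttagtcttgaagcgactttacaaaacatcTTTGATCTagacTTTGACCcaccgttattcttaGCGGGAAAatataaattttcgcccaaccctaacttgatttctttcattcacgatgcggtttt
cbd-1: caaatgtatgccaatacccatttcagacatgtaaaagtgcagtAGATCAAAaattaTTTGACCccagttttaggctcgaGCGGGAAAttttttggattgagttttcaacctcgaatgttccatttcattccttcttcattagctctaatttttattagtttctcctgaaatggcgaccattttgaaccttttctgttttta
cpg-1: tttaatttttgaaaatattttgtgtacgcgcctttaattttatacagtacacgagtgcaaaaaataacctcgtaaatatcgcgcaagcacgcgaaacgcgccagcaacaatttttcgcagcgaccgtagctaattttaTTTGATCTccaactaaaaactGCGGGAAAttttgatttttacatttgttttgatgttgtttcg
egg-3: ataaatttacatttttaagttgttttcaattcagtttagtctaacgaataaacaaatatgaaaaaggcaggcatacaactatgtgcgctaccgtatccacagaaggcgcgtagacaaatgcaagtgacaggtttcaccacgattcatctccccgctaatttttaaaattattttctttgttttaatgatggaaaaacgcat

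The deposited files are peak lists with no read counts, so the depth behind each value is unknown. A thresholded list keeps the peaks that pass the irreproducible discovery rate (IDR), which scores how well the order of peaks holds between sets, and a ranked list also holds the peaks that do not. The series-wide thresholded list, made from the alignments of both replicates, had 2741 peaks, the conservative list 2631, the list of replicate 1 962 and that of replicate 2 863. The ranked lists were much longer, with 77320 peaks in replicate 1 and 79846 in replicate 2. Signal is the strength that the authors' peak caller gave each peak. How that value was scaled is not given, so an SD between replicates may also hold a difference in scale. In the series-wide thresholded list the median signal was 73.1 and the highest 3403.

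Promoter summits in the series-wide list were found at cpg-2, cbd-1, egg-1 and chs-1, that is 4 of the 9 eggshell genes (44.4%), against 1251 of all 19973 protein-coding genes (6.26%). In the conservative list 5 of the 9 (55.6%) had one, with egg-3 added, against 6.14% of all genes. In replicate 1's own list it was 3 of the 9 (33.3%), namely cpg-2, egg-1 and chs-1, against 3.02% of all genes. In replicate 2's own list it was 4 of the 9 (44.4%), the same 3 genes and cpg-1, against 2.85% of all genes. Thus cpg-2, egg-1 and chs-1 were in every list, cbd-1 in the lists that join the replicates, egg-3 in the conservative list alone and cpg-1 in replicate 2's list alone. For egg-2, perm-2 and perm-4 no list had a promoter summit. The genes were named with earlier results of these data known, so these shares are a description and carry no test.

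Promoter signal over the 9 genes, taken as the highest signal of any ranked peak with its summit within 500 bp and as 0 where there was none, had a median of 35.0 in replicate 1 and 35.7 in replicate 2. Over all protein-coding genes, counted in the same way, the median was 12.5 in replicate 1 and 13.1 in replicate 2. A ranked peak was present at 8 of the 9 genes in each replicate, against 60.4% of all genes in replicate 1 and 63.0% in replicate 2. In replicate 1, 7 of the 9 were in the top 10% of all genes, and in replicate 2, 5 were. In each replicate 1 of the 9 was in the top 1%, cpg-2 in replicate 1 and cpg-1 in replicate 2. The eggshell genes therefore mostly lay in the upper part of the range of promoters and below its extreme end, where the highest promoter value was 1793 in replicate 1 and 1616 in replicate 2.

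**Figure D1:**
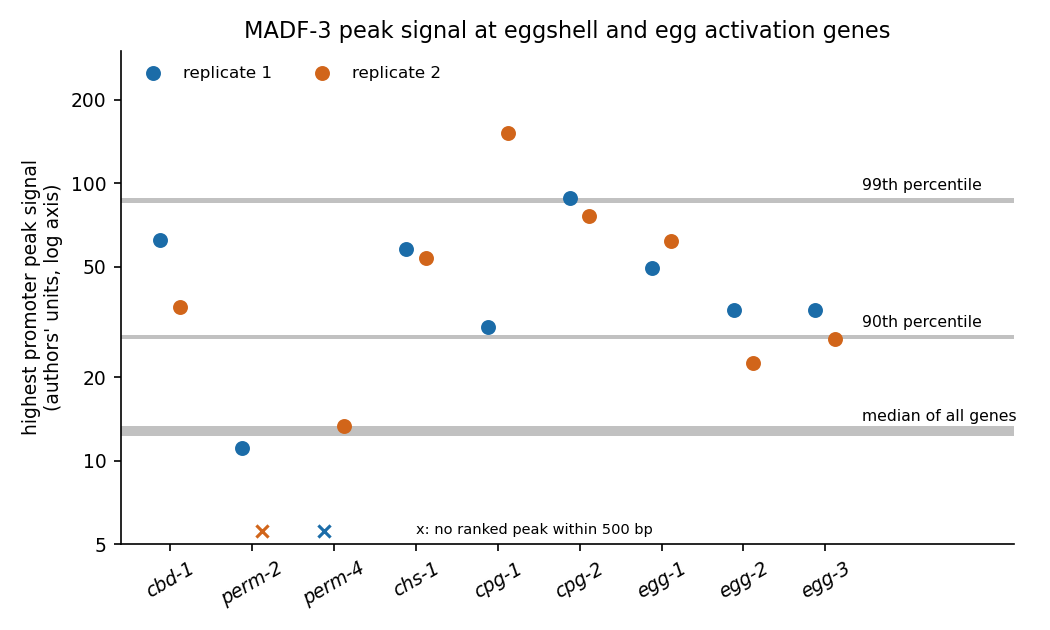
Highest signal of a ranked peak with its summit within 500 bp of the 5' end (vertical log axis, authors' units) for each eggshell and egg activation gene, with 1 point for replicate 1 and 1 for replicate 2; crosses at the foot mark genes with no such peak. Grey bands give the median, 90th and 99th percentile of all protein-coding genes, which span both replicates. The points of cpg-1 at 30.4 and 152 are the farthest apart and come from different peaks. For perm-2 and perm-4 there is 1 point each, near the median of all genes.

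At cpg-2 (WBGene00015102, III from 7102092 to 7103990, minus strand), which encodes a chondroitin proteoglycan of the inner eggshell with chitin-binding domains, the signal was 88.3 in replicate 1 and 76.4 in replicate 2, or 82.3 ± 8.44 (SD, n = 2). It ranked 198 of all protein-coding genes in replicate 1 and 250 in replicate 2, so cpg-2 was high in both. The series-wide peak was intergenic, had a signal of 162 and ranked 255 of the 2741. Its summit was -260 bp from the 5' end, where negative is upstream, and the replicate summits were 22 bp apart. The next gene upstream, odd-1, was 4322 bp away and on the opposite strand. Of the 4 series-wide promoter summits, that of cpg-2 had the highest signal and lay farthest from its gene.

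The replicates differed most at cpg-1 (WBGene00000465, III from 4489359 to 4491392, plus strand), which encodes the other inner-layer proteoglycan. Its highest promoter signal was 30.4 in replicate 1, at 152 bp downstream of the 5' end, and 152 in replicate 2, at -242 bp. These are different peaks, so the mean of 91.0 ± 85.8 (SD, n = 2) joins values from 2 places and the ratio of 4.99 between them does not compare 1 site. At the downstream place replicate 2 had its own ranked peak, with a signal of 23.8 at 155 bp, close to that of replicate 1. At the upstream place replicate 1 had no ranked peak. The replicate 2 peak, on III from 4489015 to 4489218, ranked 92 of 863 in that replicate's thresholded list and had a −log10 of the IDR of 4.44 in its ranked list, where the cap is 5. It met no peak of the series-wide ranked list, whose highest promoter peak at cpg-1 was the downstream one, with a signal of 44.1. Of the 863 thresholded peaks of replicate 2, 14 (1.62%) met no series-wide ranked peak, and the cpg-1 peak was the strongest of them. For replicate 1 it was 22 of 962 (2.29%), the strongest with a signal of 127. The cause of this difference between the lists was not tested. None of the 166 overlapping 36-base stretches of the cpg-1 window occurred elsewhere in the genome. The same held for the windows of cbd-1, egg-1, egg-3 and chs-1, so it does not set cpg-1 apart. No cause is read from this.

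For cbd-1 (WBGene00010351, IV from 11372991 to 11377627, plus strand), whose chitin-binding protein anchors the vitelline layer, the signal was 62.2 in replicate 1 and 35.7 in replicate 2, or 48.9 ± 18.7 (SD, n = 2). Replicate 1 was the higher by a ratio of 1.74, and the summits were 7 bp apart, at -162 bp in replicate 1 and -155 bp in replicate 2. The series-wide peak, intergenic on IV from 11372726 to 11372945, had a signal of 95.2 and ranked 686 of the 2741. Neither replicate's own thresholded list held it. The −log10 of the IDR was 1.97 in replicate 1's ranked list and 0.125 in replicate 2's. Upstream of cbd-1 lies sec-31, which encodes a coat protein of secretory vesicles and is read from the opposite strand. Their 5' ends are 1199 bp apart, and sec-31 had no promoter summit.

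The paired oocyte surface genes egg-1 and egg-2 differed in where their peaks lay. At egg-1 (WBGene00015083, III from 5728180 to 5730159, plus strand) the signal was 49.3 in replicate 1 and 61.7 in replicate 2, or 55.5 ± 8.77 (SD, n = 2), with summits at -161 bp in replicate 1 and -179 bp in replicate 2. The series-wide peak, on III from 5727916 to 5728135, was intergenic, had a signal of 114 with its summit at -154 bp, and ranked 468 of the 2741. Replicate 2 was the higher here, unlike at cpg-2, cbd-1 and chs-1. At egg-2 (WBGene00019811, III from 7058527 to 7060583, minus strand) the strongest promoter peak was inside the gene, with a signal of 34.8 at 348 bp in replicate 1 and 22.5 at 350 bp in replicate 2, or 28.7 ± 8.66 (SD, n = 2). In the series-wide ranked list that peak had a signal of 55.1 and a score of 651, under the lowest score of 830 in the thresholded list. No ranked peak of either replicate lay within 500 bp upstream of egg-2, whereas both replicates had one upstream of egg-1. The series-wide ranked list had a weak peak upstream of egg-2, at -28 bp, with a signal of 13.9 and a score of 75. No test of the difference between the paralogues was made, since each has 1 value a replicate.

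At egg-3 (WBGene00009701, II from 10882408 to 10884441, minus strand), the phosphatase-like regulator of egg activation, the signal was 35.0 in replicate 1 and 27.5 in replicate 2, or 31.3 ± 5.27 (SD, n = 2). Its rank among all protein-coding genes was 1038 in replicate 1 and 2084 in replicate 2. The summit lay at -181 bp in replicate 1 and -197 bp in replicate 2. The peak, on II from 10884510 to 10884729, had a score of 897 in the conservative list, where it ranked 2375 of 2631 by signal, and 568 in the series-wide ranked list. It thus passed the threshold in the conservative list and missed it in the series-wide one. Its window, printed above, held none of the 3 words. F44F4.3, on the same strand, ends 263 bp upstream of egg-3, and its own 5' end is 1477 bp away.

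The chitin synthase gene chs-1 (WBGene00000496, I from 7554855 to 7559916, plus strand) had the closest values between replicates. Its signal was 57.9 in replicate 1 and 53.8 in replicate 2, or 55.8 ± 2.88 (SD, n = 2), and its rank among all genes was 382 in replicate 1 and 433 in replicate 2. The series-wide peak, on I from 7554667 to 7554886, had a signal of 121 with its summit at -78 bp and ranked 401 of the 2741. The replicate summits were 51 bp apart, at -52 bp in replicate 1 and -103 bp in replicate 2, the widest gap among the 4 genes with a series-wide promoter summit. The gene also held a further series-wide summit, in an intron on I from 7559592 to 7559811, with a signal of 60.0 and 31.4 ± 10.7 (SD, n = 2) over the replicates. That summit is nearest to the 5' end of the next gene, T25G3.3, at -137 bp, so it counts as a promoter summit of T25G3.3 and not of chs-1.

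The 2 vitelline layer genes perm-2 (WBGene00016636, IV from 1126790 to 1128865, plus strand) and perm-4 (WBGene00016638, IV from 1121494 to 1125107, minus strand) had little signal. They are divergent neighbours with 1683 bp between their 5' ends. At perm-2 the strongest peak of replicate 1, at -108 bp, ranked 10689 of all protein-coding genes (top 53.5%), and replicate 2 had no ranked peak within 500 bp. At perm-4 replicate 1 had no ranked peak within 500 bp, and replicate 2 had a signal of 13.3 at 89 bp (top 49.6%). Each value lies near the median of all protein-coding genes in its replicate. In the series-wide ranked list the signal was 25.4 at perm-2 and 17.1 at perm-4, each with a score of 75. Depth is unknown, so these values do not show that MADF-3 is absent there.

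**Figure D2:**
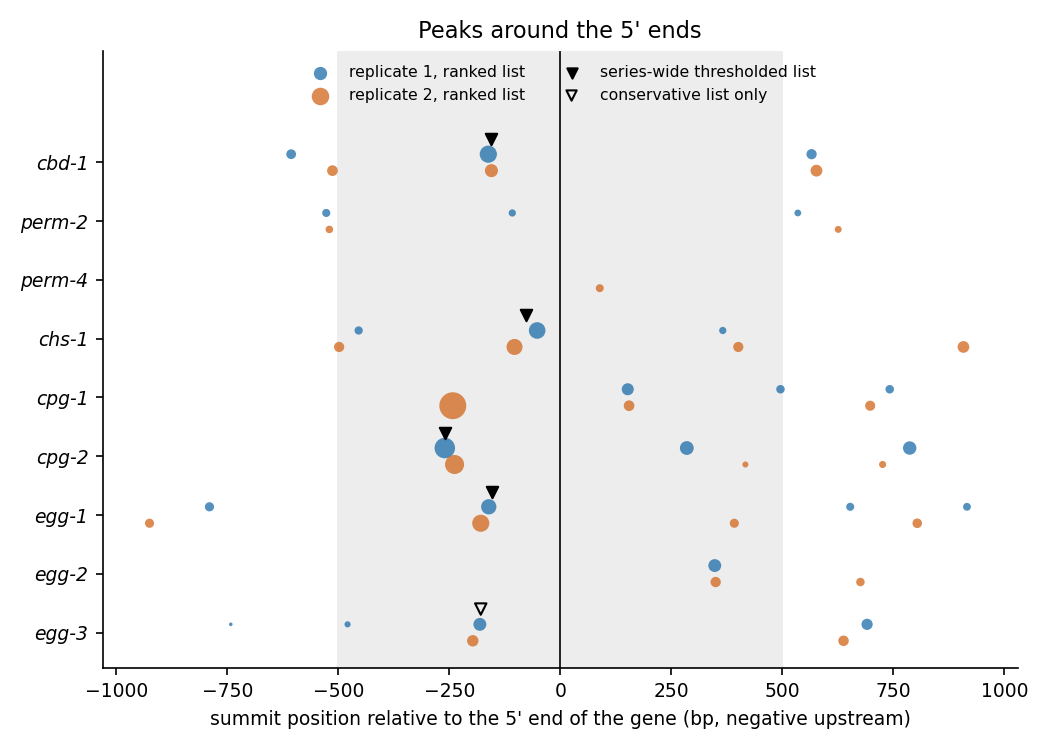
Summits of ranked peaks within 1000 bp of the 5' end of each gene (horizontal axis, bp, negative upstream; grey marks the 500 bp window), with replicate 1 above replicate 2 and point area in proportion to signal. Filled triangles mark summits of the series-wide thresholded list and the open triangle that of egg-3, in the conservative list only. All marked summits lie upstream, between -260 bp at cpg-2 and -78 bp at chs-1.

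All 4 series-wide promoter summits of the eggshell genes were upstream of the 5' end, with a median of -154.5 bp, against 68.4% upstream and a median of -109.0 bp over all 1082 promoter summits. Their median signal was 118, against 80.5 over all promoter summits, of which the upper quartile was 118. None of the 4 lay within 500 bp of another protein-coding 5' end, while 220 of the 1082 (20.3%) did. The annotated 5' end of 7 of the 9 genes is at most 11 bp from the first coding base, while it is 22 bp at perm-4 and 146 bp at chs-1. In worms an annotated 5' end is often a trans-splice site, where a leader is joined to the transcript, and not the start of transcription. Except at chs-1, distances from it are therefore close to distances from the coding part of the gene.

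Peaks inside the genes were few and weaker. Besides the summit at the end of chs-1, the series-wide list had 1 in a coding exon of cpg-1 and 1 in a coding exon of egg-2. The cpg-1 peak, on III from 4491016 to 4491235 and 1767 bp from the 5' end, had a signal of 69.9, with 38.1 in replicate 1 and 31.2 in replicate 2, or 34.7 ± 4.90 (SD, n = 2). The egg-2 peak, on III from 7059347 to 7059566 and 1126 bp from the 5' end, had 56.4, with 22.9 in replicate 1 and 36.2 in replicate 2, or 29.6 ± 9.37 (SD, n = 2). Neither gene has a series-wide summit at its promoter. The share of all protein-coding genes with a summit inside the gene was not computed, so no pattern is read from this. Neither replicate's own thresholded list held the cpg-1 or the egg-2 peak. Their signals were below the median of the series-wide list, and they are given as a description.

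Of the 16 other genes next to the 9, upstream or downstream, 1 had a series-wide promoter summit, T25G3.3, against 6.26% of all protein-coding genes, so the share among the neighbours was that of the background. In each of the 4 series-wide promoter peaks the nearest protein-coding 5' end was that of the eggshell gene. Upstream of egg-1 lies wrm-1, a beta-catenin of the Wnt pathway, 1064 bp away on the same strand. The nearest protein-coding gene upstream of cpg-1, the insulin-like gene ins-17, is 11786 bp away. The cpg-1 peak of replicate 2 thus lies in a long stretch without protein-coding genes. Upstream of chs-1, T25G3.1 ends 301 bp away on the same strand.

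The 3 words of the windows printed above were close together at egg-1 and cbd-1. Positions here are those of the first base of the word on the gene's strand, counted from the 5' end. At egg-1 TTTGATCT was at -148 bp, TTTGACC at -136 bp and GCGGGAAA at -115 bp. At cbd-1 they were at -212, -199 and -176 bp, with TTTGATCT on the opposite strand. The order along the gene was the same at both, but the words were picked from these windows, so no result is drawn from it. At cpg-1 TTTGATCT was at -204 bp and GCGGGAAA at -183 bp, under the replicate 2 peak, with no TTTGACC. The words do not overlap each other in these windows.

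Among the series-wide promoter windows of cbd-1, egg-1 and chs-1, GCGGGAAA on either strand was in 2 of 3, TTTGATCT in 2 and TTTGACC in 3. Over the 1081 promoter summit windows searched, all of the same length, GCGGGAAA was in 39 (3.61%), TTTGATCT in 2.50% and TTTGACC in 2.50%. Over stretches of the same length just upstream of 19972 protein-coding 5' ends the shares were 1.09% for GCGGGAAA, 2.62% for TTTGATCT and 2.81% for TTTGACC. All 3 words together were in 2 of the 2740 series-wide summit windows searched (0.0730%), which were those of egg-1 and cbd-1. GCGGGAAA and TTTGACC together were in 7 of the 2740 (0.255%) and in 8 of the 19972 stretches upstream of 5' ends (0.0401%). Of those 8 genes, cbd-1 and egg-1 had a series-wide promoter summit and 6 did not, namely srg-34, nhr-161, ced-2, C04C3.4, tbx-33 and Y71H2AM.1. The other summit windows with that pair were nearest to tsr-2, with a signal of 1088 at -191 bp, smo-1, K12G11.6, Y6D1A.1 and cpg-8, a further proteoglycan gene with the summit at -3142 bp. Because the words were picked from the eggshell windows, their presence there is no finding, and the shares elsewhere say only how common the words are. A match is not evidence that a factor binds it, and no cause is drawn from it.

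The words were also looked for outside those windows. In the 500 bases upstream of egg-2, TTTGATCT was at -145 bp, with no ranked peak upstream in either replicate. Over the 19972 protein-coding genes searched 6.14% had TTTGATCT in those 500 bases, 2.75% GCGGGAAA and 7.23% TTTGACC. None of the 3 words was in the 500 bases upstream of egg-3, chs-1, perm-2 or perm-4, and at chs-1 TTTGACC was at 12 bp, inside the gene. Another 13 windows lie at series-wide promoter summits of the other pathway genes named below. There GCGGGAAA was in 1 (7.69%), TTTGATCT in 2 (15.4%), TTTGACC in 0 and no pair with GCGGGAAA in any. Over all promoter summit windows the shares were 3.61% for GCGGGAAA, 2.50% for TTTGATCT and 2.50% for TTTGACC.

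Of the motifs listed for the search without reading the windows, TTTCGCGC was in 1 of the 3 eggshell windows, that of chs-1, between the summit and the 5' end. It was in 5.37% of promoter summit windows and 0.906% of promoters. GGCGGGA, an E2F-like word that shares letters with GCGGGAAA, was in 0 of the 3, against 4.72% of promoter summit windows and 1.73% of promoters. TATAAA was in 2 of the 3, egg-1 and chs-1, against 11.9% of promoter summit windows and 30.5% of promoters. The GATA words AGATAA and TGATAA, the E-box CACGTG and GAGAGA were in 0 of the 3, which says only that these letters are not in these windows. The median GC share of the 3 windows was 38.3%, from 34.8% to 40.3%, against 42.3% over the promoter summit windows and 32.8% over the promoters searched.

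Other genes of the same process were taken from 7 lists with 48 names, of which 45 matched the annotation and cpg-5, cpg-6 and syn-4 did not. In the series-wide list 12 of the 45 (26.7%) had a promoter summit, against 6.26% of all protein-coding genes, and in the conservative list also 12, against 6.14%. Among the 12 of the series-wide list, memi-1 and cyp-31A3 are both counted from the same peak. The share of all genes counts shared peaks in the same way. With a window of 200 bp the series-wide count was 6, as the share of all genes also fell, to 3.15%. In the list of replicate 1 it was 6, against 3.02% of all genes, and in that of replicate 2 5, against 2.85%. The median place of these genes among all promoters by signal was the top 27.5% in replicate 1 and somewhat higher up in replicate 2. For the 9 eggshell genes it was the top 5.20% in replicate 1 and the top 4.97% in replicate 2. These lists too were drawn up with earlier results known.

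Of 15 other eggshell and egg activation genes 6 (40.0%) had a series-wide promoter summit, against 6.26% of all protein-coding genes. The strongest was at perm-1, a gene needed for the permeability barrier of the embryo, with a signal of 76.9 in replicate 1 and 93.5 in replicate 2, or 85.2 ± 11.7 (SD, n = 2), at -232 bp on II from 7880470 to 7880689. At cpg-4, another chondroitin proteoglycan gene, it was 40.7 in replicate 1 and 45.2 in replicate 2, or 42.9 ± 3.17 (SD, n = 2), at -100 bp. At perm-3, a further barrier gene, it was 27.5 in replicate 1 and 54.3 in replicate 2, or 40.9 ± 18.9 (SD, n = 2), at -41 bp from perm-3 and also within 500 bp of swsn-6. Thus perm-1 was near cpg-2 in both replicates, and perm-3 was the least even of these genes. Of the paralogues that encode phosphatase-like partners of EGG-3, egg-4 had 47.4 ± 14.5 (SD, n = 2) at -245 bp and egg-5 had 52.6 ± 4.47 (SD, n = 2) at -221 bp. The genes egg-4 and egg-5 are near-identical copies. Whether reads at their upstream peaks were split between them was not tested, so both values are uncertain. The peak at memi-1, which acts at the end of the female meiotic divisions, is nearer to cyp-31A3, at -451 bp from memi-1 and -170 bp from cyp-31A3, with 33.6 ± 2.77 (SD, n = 2). The genes cpg-3, cpg-7, cpg-8 and cpg-9 had no promoter summit, and neither did mbk-2, the kinase that EGG-4 and EGG-5 hold inactive until egg activation.

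The lists of genes that make or secrete the layers were short, and differences between lists were not tested. The share of all protein-coding genes with a series-wide promoter summit, 6.26%, is the background for each count. Chitin precursor synthesis (gfat-1, gfat-2, gna-1 and gna-2) had 0 of 4. The somatic chitin synthase gene chs-2 had none either, with no ranked promoter peak in replicate 1 and a signal of 18.0 in replicate 2. In chondroitin synthesis 1 of 9 had a promoter summit, sqv-3, a galactosyltransferase gene. Its own peak at 49 bp had 32.6 ± 9.15 (SD, n = 2), and a far stronger one of 465 ± 48.2 (SD, n = 2) at -458 bp is nearer to vha-1, at -442 bp. Among permeability barrier lipid genes 2 of 5 had one, emb-8, a cytochrome P450 reductase gene, with 39.1 ± 9.71 (SD, n = 2) at 499 bp, and cyp-31A3, a P450 gene. The emb-8 summit is at the very edge of the window. In replicate 1 the overlapping peak, with a signal of 46.0, lay outside the window at 535 bp. Within the window the highest signal at emb-8 was 13.8 in replicate 1 and 32.3 in replicate 2. The cyp-31A3 peak is the one shared with memi-1.

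Among genes of cortical granule exocytosis, which releases CPG-1 and CPG-2, 1 of 5 had a promoter summit, sep-1, the separase gene. Its peak at 158 bp had 36.8 ± 2.80 (SD, n = 2), and another of 35.3 ± 9.77 (SD, n = 2) is nearer to nefr-1. Among oocyte regulators 2 of 6 had one. The share of all protein-coding genes, 6.26%, is the background for both counts. At rme-2, the yolk receptor gene, the signal was 47.9 in replicate 1 and 47.8 in replicate 2, at -112 bp. At oma-2, a zinc-finger regulator of oocyte maturation, it was 31.9 ± 3.72 (SD, n = 2), at -395 bp. Its paralogue oma-1 had 62.4 in replicate 1 and 15.8 in replicate 2, with no summit in the series-wide list. In replicate 1's own list 2 of the 6 had a promoter summit, against 3.02% of all genes, and in replicate 2's list 0, against 2.85%. The gene rme-2 was 1 of these, and the other was not identified here. By replicate 1 signal oma-1 was the highest of the 6. By the highest signal within 500 bp, rme-2 was the most even gene of these lists and oma-1 among the least even. Where the oma-1 peaks lay was not compared, so its values may come from different peaks.

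**Figure D3:**
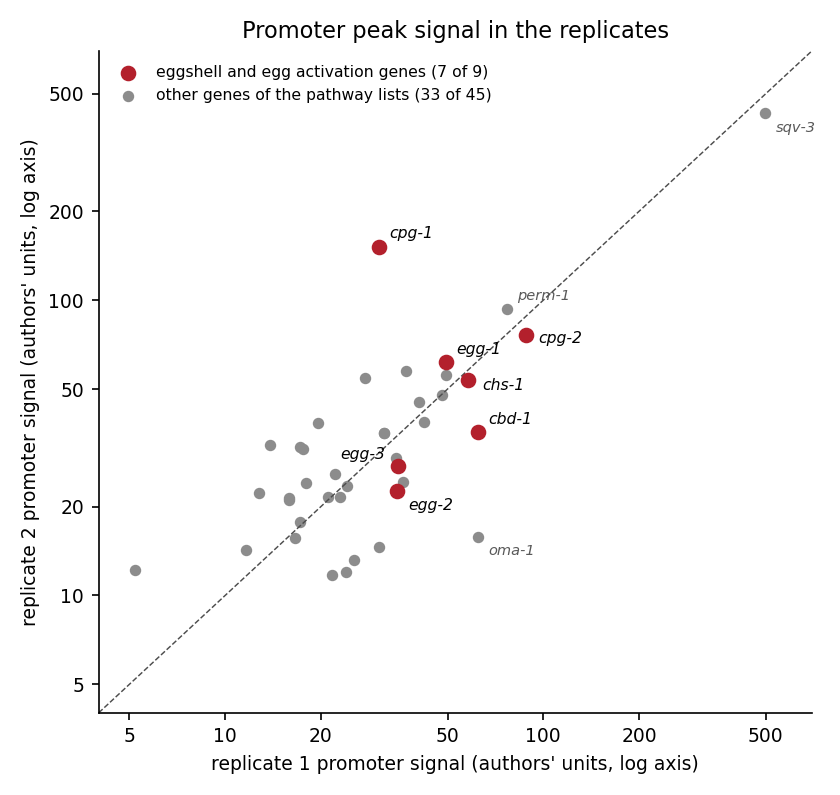
Highest promoter signal in replicate 1 (horizontal log axis, authors' units) against replicate 2 (vertical log axis, authors' units) for the 7 of 9 eggshell and egg activation genes (red) and the 33 of 45 other pathway genes (grey) with a ranked promoter peak in both; the dashed line marks equal values. The cpg-1 point lies far above the line and oma-1 far below it, while cpg-2, egg-1 and chs-1 lie close to it. The cpg-1 point joins different peaks, at 152 bp in replicate 1 and at -242 bp in replicate 2. Whether the oma-1 point joins different peaks was not checked. The sqv-3 point at the top right is the peak nearer to vha-1.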

How the data were processed

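TF ChIP-seq peak lists of 2 biological replicates with separate biosample records were used. They form 1 group, so no comparison between groups was made. Chromatin was sheared by sonication and the assembly is ce11, per the labels. For the aligner, the caller and the control, name and version were not given in the sources used here. A peak's signal is the caller's strength as deposited by the authors, and the summit was placed with the offset deposited beside it. The score is a whole number up to 1000 that the authors made from the IDR. The ranked lists also hold the IDR as deposited by the authors on a −log10 scale, with a cap of 5. In the ranked lists made from both replicates, 16 columns of compared peak sets name no sample and were not used.

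Genes came from Ensembl release 115, with 0 peak ends beyond the assembly. Neighbouring genes and the term intergenic refer to protein-coding genes only, and genes of other kinds were not considered. A promoter summit lies within 500 bp of the annotated 5' end on either side. A gene's promoter signal is the highest of its ranked peaks there, given per replicate and as mean ± SD (n = 2). For a named peak, each replicate's value is that of its strongest overlapping ranked peak. Values are descriptions and no p-value was computed. Depth is unknown, so no interval on a signal can be given. Windows of 100 bases either side of summits, and stretches of the same length just upstream of all 5' ends, were searched on both strands. The window of 1 eggshell gene is not reported here and entered no sequence result.

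The genes and lists were chosen with earlier results of these data known, and GCGGGAAA, TTTGATCT and TTTGACC after the windows were read. Genes are named if they are 1 of the 9, share or are nearest to one of their summits, belong to a list and have a promoter summit, or fall in a count of 5 or fewer. Flanking genes, genes with the word pair, cpg-3, cpg-7 to cpg-9, mbk-2 and oma-1 were added after their values were seen. Alternatives were other lists, windows of 200 and 1000 bp, other overlap rules and 5' ends, and leaving out each replicate. Placement of summits was tested on simulated data. Python 3.11.15, pandas 2.3.3, numpy 2.4.6, biopython 1.88 and matplotlib 3.10.9 were used.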

Additional observations from a re-analysis of the deposited data

How the results depend on the processing

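The count of eggshell genes with a promoter summit was 4 and ranged from 3 to 4 with 1 replicate left out. Leaving out a replicate means taking the other replicate's own list. Both of those lists lacked cbd-1, and that of replicate 2 had cpg-1 in its place. With a window of 200 bp the count was 3, since cpg-2 falls outside. It was 5 in the conservative list. With 1000 bp, in the 1370 stronger peaks, counting any base of the peak and from transcript starts it was 4. The share of all genes ran from 2.85% to 8.76% over these settings. The count in replicate 2's own list was 2 with 200 bp in place of 4, since cpg-1 and cpg-2 lie farther upstream, and the share of all genes was 1.40% in place of 2.85%. Of the 45 other pathway genes, 6 had a summit with 200 bp, where the share of all genes was 3.15%, and 14 with 1000 bp, where it was 8.76%. With 1000 bp 1 eggshell summit had another gene in reach. The median over the 9 genes of the mean signal of both replicates, with a missing peak as 0, was 48.9. It was 35.0 to 35.7 with 1 replicate left out and 27.1 with 200 bp, where genes lose their strongest peak. It was 58.1 in the series-wide ranked list, and the cause was not tested. The median distance of -154.5 bp was -167.0 to -161.5 bp with 1 replicate left out. The mean signal at cpg-1 was 27.1 with 200 bp and 44.1 in the series-wide ranked list, in place of 91.0. At the other 6 genes with a value in both replicates the series-wide ranked list gave the higher signal. The window settings for the replicate lists and for neighbours and the sequence windows of 50 and 150 bases either side, which left GCGGGAAA in 2 of 3, were added after seeing the data. Signals paired in the ranked list of the true replicates were not run, because those columns name no sample. No paired analysis was possible because there is only 1 group. Depth is unknown, so weak promoters such as perm-2 and perm-4 cannot be told from unbound ones.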
